A study of Homo sapiens with 6 samples.

Results

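The genes described here are those that license and copy DNA, followed in tongue carcinoma cells after knockdown of IGFBP3. They comprise 52 genes, taken as the rows of the deposited expression table whose gene name is on a list of origin, helicase, clamp, polymerase, fragment-processing, nucleotide and chromatin-replication genes. The table holds 66351 gene models, of which 59520 have a name. Of the 52 genes, 51 reached an FPKM of 1 in 2 or more of the 6 libraries, and were tested among the 11214 genes that met this filter; FPKM is a count of fragments scaled to the length of the gene model and to the reads of the library. The remaining gene, CHAF1B, a subunit of the chromatin assembly factor that deposits histones behind the fork, was listed at 0 in 5 libraries and at 0.011 FPKM in 48 h replicate 1.

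All libraries came from SAS-Fucci cells, a line of human tongue squamous cell carcinoma (SAS) that stably carries the Fucci cell cycle reporter. In this reporter fluorescent proteins are fused to parts of CDT1 and geminin, so reads from the reporter may count toward the CDT1 and GMNN rows in every group. RNA-Seq was done on cells transfected with IGFBP3 siRNA #1 and taken after 72 h (2 libraries) or after 48 h (2 libraries), and on cells that received a non-targeted control siRNA, called Cont (2 libraries). Cells kept for 72 h had their medium exchanged at 48 h, the harvest time of the Cont cells is not given in the sources used here, and a single IGFBP3 siRNA was used for these libraries. Nothing in the labels tells whether replicate libraries were made from separate cultures, so the p-values measure only the spread between these libraries.

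Replication begins in G1 phase, when the origin recognition complex (ORC1 to ORC6), CDC6 and CDT1 load the MCM2-7 helicase onto DNA, and geminin (GMNN) holds CDT1 back once S phase has begun. CDC45 and the GINS complex then activate the helicase, polymerase alpha-primase lays primers, and the clamp PCNA, loaded by replication factor C, tethers polymerases delta and epsilon. RPA covers single-stranded DNA, FEN1, DNA2 and LIG1 finish Okazaki fragments, and ribonucleotide reductase with TYMS, TK1 and DUT supplies the nucleotides. Many of these genes are transcribed around the G1/S boundary under E2F transcription factors, so their RNA follows the cell cycle in proliferating cells.

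Promoters are shown because E2F sites are a feature that many of these genes share and that the choice of members did not use. RefSeq windows (GRCh38.p14) of 250 bases before to 50 bases after a gene start were found for 45 of the 52 members. They were searched on both strands for 4 forms of the E2F motif, TTTCCCGC, TTTGGCGC, TTTGCCGC and TTTCGCGC. At least 1 form lay in a window of 22 of the 45 members (48.9%), against 1090 of 27305 genes with a window (3.99%) and 855 of 15843 protein-coding genes (5.40%). Among members with a window, the motif was present in 6 of 11 called lower at either time (54.5%). It was present in 16 of 31 tested members called at neither time (51.6%). POLD3, DNA2, MCM5 and RPA3 were also called lower but had no window, so the 2 largest falls, POLD3 and DNA2, are not in this comparison. Of the 30 matches in members, 23 began within 100 bases of the start, over positions from -187 to 8 relative to it. No window was found for MCM4, MCM5, GINS4, RPA2, RPA3, POLD3 and DNA2. The windows of 4 genes called lower are given 5′ to 3′ on the strand of the gene, with the motif in capitals and as its reverse complement where it lies on the other strand: POLA1 at chrX:24693668-24693967, plus strand, PCNA at chr20:5126573-5126872, MCM6 at chr2:135876394-135876693 and GINS2 at chr16:85688905-85689204, these last all on the minus strand.
POLA1: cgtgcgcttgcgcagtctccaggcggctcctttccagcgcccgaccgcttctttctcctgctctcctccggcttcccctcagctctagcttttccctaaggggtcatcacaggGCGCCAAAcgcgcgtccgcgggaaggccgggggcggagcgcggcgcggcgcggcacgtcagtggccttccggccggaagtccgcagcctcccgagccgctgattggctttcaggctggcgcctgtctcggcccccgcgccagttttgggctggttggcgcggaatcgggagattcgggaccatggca
PCNA: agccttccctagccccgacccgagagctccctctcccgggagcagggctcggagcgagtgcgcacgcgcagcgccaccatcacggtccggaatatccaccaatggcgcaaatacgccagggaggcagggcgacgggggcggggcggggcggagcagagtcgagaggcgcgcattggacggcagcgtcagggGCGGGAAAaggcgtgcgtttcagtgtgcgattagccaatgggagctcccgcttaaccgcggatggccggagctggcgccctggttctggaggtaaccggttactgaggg
MCM6: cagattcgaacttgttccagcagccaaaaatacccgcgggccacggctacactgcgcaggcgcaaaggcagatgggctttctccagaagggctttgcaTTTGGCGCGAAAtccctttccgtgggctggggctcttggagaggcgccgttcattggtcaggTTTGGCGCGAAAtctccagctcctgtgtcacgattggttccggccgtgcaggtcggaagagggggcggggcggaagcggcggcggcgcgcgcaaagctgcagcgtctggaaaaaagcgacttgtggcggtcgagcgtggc
GINS2: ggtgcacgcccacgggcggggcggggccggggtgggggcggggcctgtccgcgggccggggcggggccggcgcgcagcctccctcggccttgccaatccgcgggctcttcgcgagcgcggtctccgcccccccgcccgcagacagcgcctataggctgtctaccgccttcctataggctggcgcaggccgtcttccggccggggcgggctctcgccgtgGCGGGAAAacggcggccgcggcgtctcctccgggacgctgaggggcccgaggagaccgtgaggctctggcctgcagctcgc
MCM6 held 4 matches in 2 blocks, in each of which TTTGGCGC overlaps GCGCGAAA, the reverse complement of TTTCGCGC. The match in POLA1 began at position -137, that in PCNA at -59 and that in GINS2 at -31. A match describes the letters and says nothing of binding.

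The targeted gene followed the labels. IGFBP3 (ENSG00000146674), a secreted binding protein of insulin-like growth factors, stood at 1.52 and 3.25 FPKM in the 72 h libraries and 0.261 and 0.258 FPKM in the 48 h libraries, against 24.7 and 23.1 FPKM in Cont. Its log2 fold change was -2.93 at 72 h (adjusted p = 0.00218) and -4.30 at 48 h (adjusted p = 0.000549), both over Cont with SE 0.22. Libraries held 17430742 to 21579558 reads assigned to genes. All 10 squamous epithelial markers reached 1 FPKM, with sums of 789 to 805 FPKM at 72 h, 492 to 534 at 48 h and 876 to 1017 in Cont. Markers of other cells were near 0: COL1A1 alone of 8 fibroblast markers reached 1 FPKM in a library, and none of 6 leukocyte or 5 endothelial markers did (CD3E, CD68, KDR and TEK, for example, were listed at 0 throughout).

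In Cont cells the RNA levels of the members spanned a wide range, here compared per length of gene model. Geminin was highest at 281 ± 11.2 FPKM (SD, n = 2), a row that may hold reporter reads, followed by PCNA at 132 ± 10.8 and TK1 at 91.7 ± 0.1103. The 6 helicase subunits MCM2 to MCM7 lay between 29.1 FPKM (MCM5) and 85.7 FPKM (MCM7), and the 6 ORC subunits between 4.75 FPKM (ORC4) and 15.6 FPKM (ORC3). Among tested members, POLA2, the regulatory subunit of polymerase alpha, was lowest at 1.36 ± 0.0247 FPKM, and the median over tested members was 15.6 FPKM. Levels are understated where a gene model is longer than the transcribed exons. The model of RFC3 was 3.20 times, PRIM1 3.01, CLSPN 1.93, POLD1 1.76, RRM2 1.72 and ORC1 1.59 times all exons of the gene in GENCODE v29. Other models exceeded the longest single transcript, such as ORC6 at 2.38 times, MCM4 at 2.01 and GMNN at 1.96, while CDT1 was at 0.852. The order of members given here therefore depends on the gene models.

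Knockdown of IGFBP3 was accompanied by lower RNA of a subset of these genes, led by the polymerase delta subunit POLD3 and the nuclease-helicase DNA2, while most members were called at neither time. At 72 h, 6 of 51 tested members were called lower than Cont (11.8%; 9.51% of all tested genes were) and 1 higher (3.56% of all genes), at a Benjamini-Hochberg adjusted p under 0.05 in limma. At 48 h, 14 members were called lower (27.5%; 16.5% of all genes) and 2 higher (8.38% of all genes). The median log2 fold change of FPKM + 1 over Cont was -0.08 at 72 h and -0.12 at 48 h over the members, beside -0.05 at 72 h and -0.04 at 48 h over all tested genes. The share called lower at 72 h was thus near that of all genes. Both libraries lay below both Cont libraries in 22 members at 72 h (37.2% of all genes) and 26 at 48 h (38.7%), and above them in 5 members at 72 h (21.2%) and 6 at 48 h (27.3%). In all 4 knockdown libraries together, 16 members lay below Cont (26.0% of all genes) and 2 above (13.1%). The heat map of all members by library shows few rows that leave the control range strongly. DNA2, POLD3, RRM2, POLA1 and PCNA were called lower at both times and ORC2 was called higher at both. The share of all tested genes called at both times is not given here. Both comparisons use the same 2 Cont libraries, so these shared calls are not independent. In bulk RNA, fewer cells in S phase and less of an mRNA per cell cannot be told apart.

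**Figure D1:**
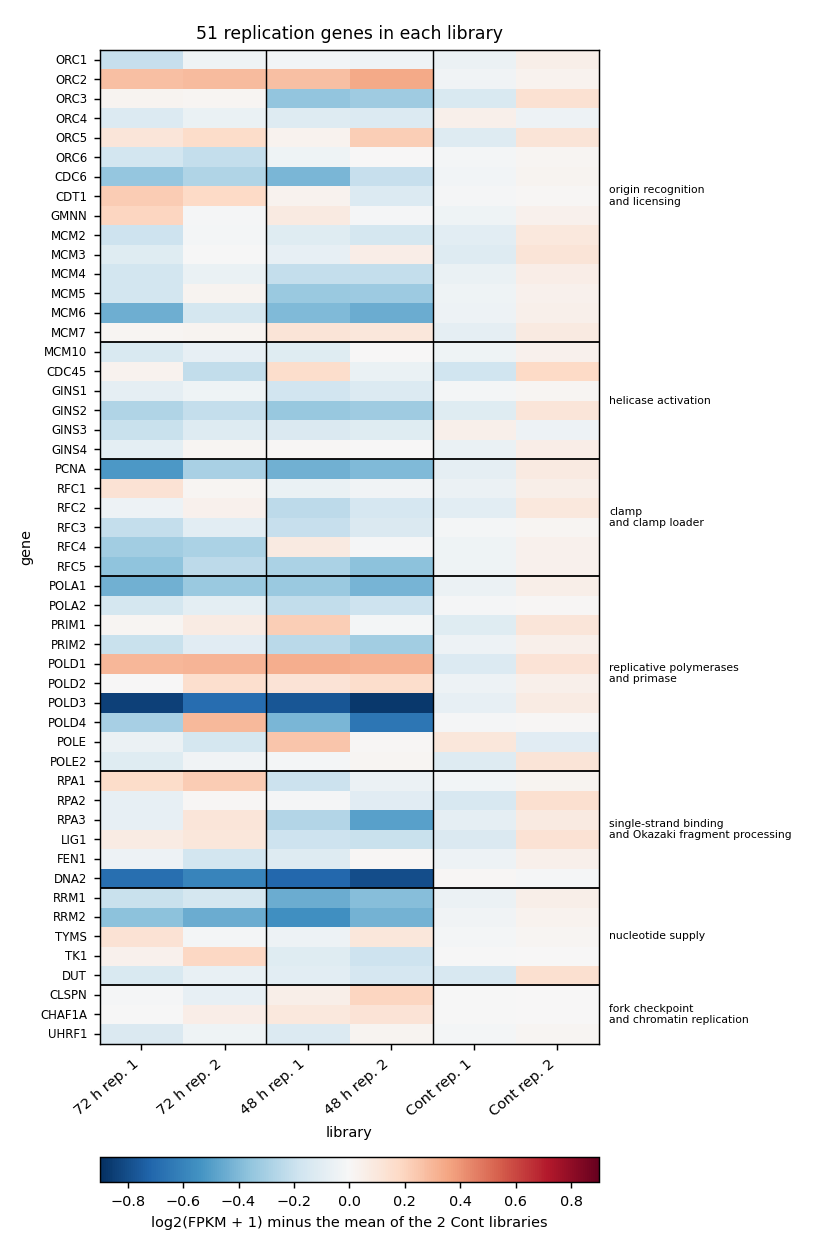
Heat map of log2(FPKM + 1) minus the mean of the 2 Cont libraries for the 51 tested replication genes (rows, grouped by role) in the 72 h, 48 h and Cont libraries (columns; rep., replicate). POLD3 and DNA2 are the darkest blue rows in all 4 knockdown libraries, and 47 of 51 members are below the Cont mean in Cont replicate 1.

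The 2 Cont libraries differed from each other over these genes, and this bears on every count. Of the 51 members, 47 had a higher FPKM in Cont replicate 2 than in Cont replicate 1, as did 51.7% of all tested genes. In the 72 h pair 40 of 51 were higher in replicate 2 (48.7% of all genes), and in the 48 h pair 26 of 51 (46.1%). The members' median difference between Cont replicate 2 and Cont replicate 1 was 0.09 log2, about as large as their median shift under knockdown. Without Cont replicate 2, 4 members were called lower at 48 h (7.84%; 9.38% of all genes) and their median was -0.04, against -0.03 over all genes. Without Cont replicate 1, 8 members were called lower at 48 h (15.7%; 8.40% of all genes) and their median was -0.15. Leaving out 48 h replicate 1 left 3 lower calls and leaving out 48 h replicate 2 left 4, so that the excess of members over all genes at 48 h was not kept without 48 h replicate 1 (5.88% against 8.86%) or Cont replicate 2. At 72 h, leaving out either 72 h library or either Cont library left 2 lower calls, DNA2 and POLD3 (3.92%; 2.53% to 3.77% of all genes). Leaving out either 48 h library left 4 (7.84%; 6.88% of all genes).

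Polymerase delta, which copies the lagging strand, held the largest fall and, in another subunit, a rise. POLD3 (ENSG00000077514, chr11:74493851-74669117, plus strand), an accessory subunit, had 7.17 and 8.12 FPKM at 72 h and 7.58 and 7.02 FPKM at 48 h, against 12.9 and 14.4 FPKM in Cont. All knockdown libraries lay far below both Cont libraries, at 55.9% of the Cont mean at 72 h and 53.4% at 48 h. The log2 fold change over Cont was -0.76 at 72 h (SE 0.09, adjusted p = 0.00594) and -0.82 at 48 h (adjusted p = 0.00273). A gene model on the same strand, AP001372.2, overlaps the POLD3 model and also had lower values, with 0.875 and 1.21 FPKM at 72 h and 0.865 and 0.788 FPKM at 48 h against 1.69 and 1.89 FPKM in Cont. How reads of overlapping models were split is not given in the sources used here. POLD1, the catalytic subunit, moved the other way, with 7.48 and 7.52 FPKM at 72 h and 7.64 and 7.53 FPKM at 48 h against 5.32 and 6.51 FPKM in Cont. It was called higher at 48 h (log2 fold change 0.32, SE 0.09, adjusted p = 0.0478), while the 72 h value of 0.30 had an adjusted p of 0.0795. The ratio of POLD3 to POLD1 was 0.958 and 1.08 at 72 h and 0.993 and 0.931 at 48 h, against 2.43 and 2.21 in Cont. POLD2, which joins these subunits, had log2 fold changes of 0.08 at 72 h and 0.14 at 48 h and was not called. The ratio of POLD3 to POLD2 changed less than that to POLD1. It was 0.142 and 0.145 at 72 h and 0.138 and 0.125 at 48 h, against 0.266 and 0.277 in Cont. POLD4, the small subunit, had only 66 to 194 reads per library, and its -0.53 at 48 h (adjusted p = 0.0865) was the largest difference from Cont without a call.

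In the primer-making polymerase, POLA1 was lower at both times and PRIM2 at 48 h. POLA1, the catalytic subunit of polymerase alpha, had 6.34 and 6.88 FPKM at 72 h and 6.87 and 6.43 FPKM at 48 h, against 8.57 and 9.31 FPKM in Cont. No knockdown library reached the lower Cont library. The log2 fold change was -0.38 at both 72 h (SE 0.08, adjusted p = 0.0259) and 48 h (adjusted p = 0.0167). EEF1B2P3, on the opposite strand, overlaps the POLA1 model and had higher values. These were 82.6 and 78.19 FPKM at 72 h and 92.8 and 90.9 FPKM at 48 h, against 65.5 and 78.101 FPKM in Cont. PRIM2, the large primase subunit, had 4.38 and 4.77 FPKM at 72 h and 4.23 and 3.97 FPKM at 48 h, against 4.98 and 5.40 FPKM in Cont. It was called at 48 h (-0.28, adjusted p = 0.0433) and not at 72 h (-0.15, adjusted p = 0.250). PRIM1, the catalytic primase subunit, had log2 fold changes of 0.05 at 72 h (adjusted p = 0.827) and 0.10 at 48 h (adjusted p = 0.542). It was called at neither time, nor were POLA2, POLE and POLE2.

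Among the genes that process single strands and Okazaki fragments, DNA2 alone was called lower at both times. DNA2 (ENSG00000138346, chr10:68414064-68472121, minus strand) trims long flaps, and had 4.63 and 4.96 FPKM at 72 h and 4.51 and 4.16 FPKM at 48 h, against 8.05 and 7.94 FPKM in Cont. Its level was 59.9% of the Cont mean at 72 h (log2 fold change -0.64, SE 0.07, adjusted p = 0.00550) and 54.2% at 48 h (-0.75, adjusted p = 0.00193). FEN1 and LIG1, which cut short flaps and seal nicks, were not called, with log2 fold changes from -0.19 to 0.09. RPA3, the smallest subunit of the single-strand binding protein, had 7.89 and 9.11 FPKM at 72 h and 6.80 and 5.68 FPKM at 48 h, against 7.85 and 8.91 FPKM in Cont. The 48 h libraries lay below Cont and the 72 h libraries overlapped it, and the 48 h fall of 0.38 on the log2 scale (adjusted p = 0.0488) was called in 3 of 15 alternatives. RPA1 and RPA2 were called at neither time.

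RRM1 and RRM2, subunits of ribonucleotide reductase, the enzyme that makes deoxyribonucleotides, were called lower at 48 h, and RRM2 also at 72 h. RRM2, the small subunit, had 43.2 and 40.9 FPKM at 72 h and 37.9 and 41.5 FPKM at 48 h, against 54.8 and 57.1 FPKM in Cont. Its log2 fold change was -0.41 at 72 h (SE 0.08, adjusted p = 0.0213) and -0.49 at 48 h (adjusted p = 0.00732). RRM1, the large subunit, had 45.2 and 46.6 FPKM at 72 h and 38.1 and 39.7 FPKM at 48 h, against 50.2 and 54.1 FPKM in Cont. The 72 h libraries lay between the 48 h libraries and Cont, and RRM1 was called at 48 h (-0.41, adjusted p = 0.00965) and not at 72 h (-0.18, adjusted p = 0.151). The other suppliers, TYMS, TK1 and DUT, were called at neither time and had log2 fold changes from -0.15 to 0.11.

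**Figure D2:**
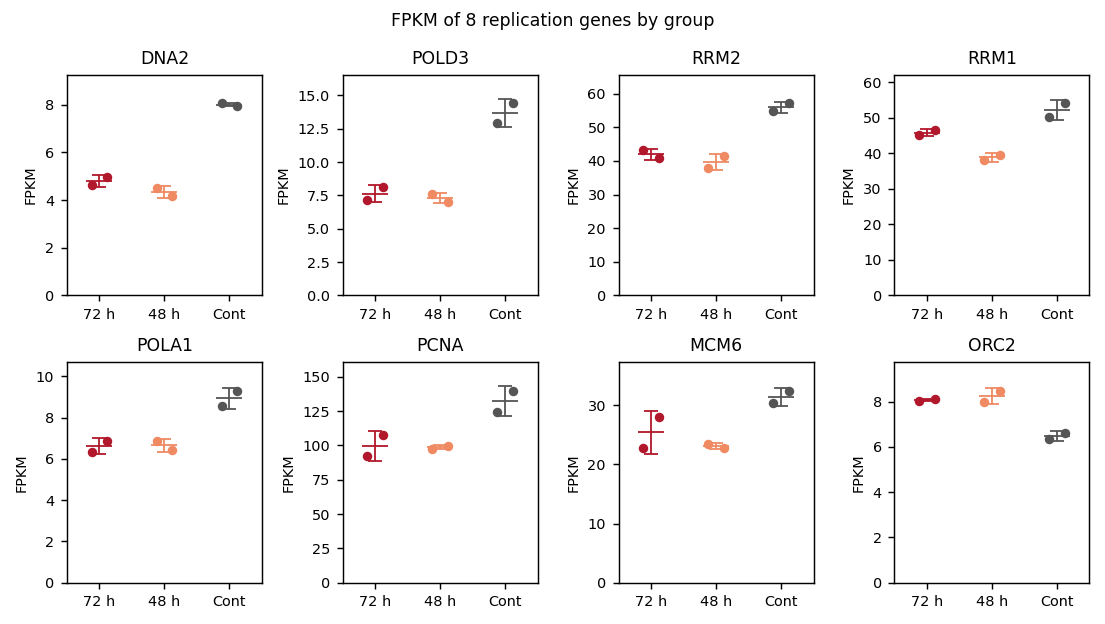
FPKM (y axis, from 0) of 8 replication genes in the 72 h, 48 h and Cont groups. Points are libraries, horizontal bars the group mean and error bars the SD (n = 2). DNA2 lies at 4.16 to 4.96 FPKM in the knockdown libraries and at 7.94 and 8.05 FPKM in Cont, and ORC2 is the gene of these 8 that lies above Cont.

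The sliding clamp PCNA was called lower at both times, and of its loader RFC4 was called lower at 72 h only and RFC5 at 48 h only. PCNA had 92.1 and 108 FPKM at 72 h and 97.7 and 99.9 FPKM at 48 h, against 125 and 140 FPKM in Cont. The groups did not overlap, and the log2 fold change was -0.40 at 72 h (SE 0.10, adjusted p = 0.0452) and -0.42 at 48 h (adjusted p = 0.0272). RFC4, a loader subunit, had 21.2 and 21.6 FPKM at 72 h and 28.2 and 26.4 FPKM at 48 h, against 25.8 and 27.4 FPKM in Cont. It fell at 72 h (-0.30, SE 0.07, adjusted p = 0.0394) and at 48 h was within the Cont range or above it (0.04, adjusted p = 0.740). RFC5, another loader subunit, had 15.9 and 17.5 FPKM at 72 h and 16.8 and 15.9 FPKM at 48 h, against 20.2 and 21.3 FPKM in Cont. It was called at 48 h (-0.33, adjusted p = 0.0248), and its 72 h value of -0.30 narrowly missed the threshold (adjusted p = 0.0504). WSB2, on the opposite strand, overlaps the end of the RFC5 model and had lower values too, with 20.3 and 19.3 FPKM at 72 h and 16.4 and 18.1 FPKM at 48 h against 25.7 and 25.3 FPKM in Cont. Whether counting used strand is not given in the sources used here. RFC1, RFC2 and RFC3 were called at neither time.

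Most of the 15 origin and licensing genes, MCM2 to MCM7 among them, were not called. At 72 h 0 were called lower and 1 higher (9.51% and 3.56% of all tested genes). At 48 h 4 were called lower and 1 higher (16.5% and 8.38% of all tested genes). ORC2 had 8.02 and 8.10 FPKM at 72 h and 7.997 and 8.481 FPKM at 48 h, against 6.33 and 6.62 FPKM in Cont, and was higher at 72 h (log2 fold change 0.28, SE 0.07, adjusted p = 0.0436) and at 48 h (0.31, adjusted p = 0.0211). ORC3, its partner in the same complex, had 15.8 and 15.7 FPKM at 72 h and 12.0 and 12.2 FPKM at 48 h, against 14.045 and 17.175 FPKM in Cont. ORC3 was called lower at 48 h (-0.34, SE 0.10, adjusted p = 0.0466), and its 72 h libraries lay between the 2 Cont libraries. ORC1, ORC4, ORC5 and ORC6 were not called. CDC6, which works with ORC to load the helicase, had 29.1 and 30.8 FPKM at 72 h and 27.9 and 32.2 FPKM at 48 h, against 36.7 and 38.1 FPKM in Cont. The log2 fold change was -0.31 at both times and passed the threshold at 48 h (adjusted p = 0.0438) and not at 72 h (adjusted p = 0.0629). Neither row of the reporter's parts was called: CDT1 had 62.3 and 60.2 FPKM at 72 h and 54.4 and 48.8 FPKM at 48 h, against 52.8 and 53.4 FPKM in Cont. GMNN had 320 and 279 FPKM at 72 h and 296 and 279 FPKM at 48 h, against 273 and 288 FPKM in Cont. Their log2 fold changes over Cont at 72 h were 0.20 for CDT1 (adjusted p = 0.140) and 0.09 for GMNN (adjusted p = 0.565), and endogenous and reporter reads cannot be told apart in them.

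Of the 6 helicase subunits, MCM5 and MCM6 were called lower at 48 h, as were 16.5% of all tested genes. None was called at 72 h, where 9.51% of all tested genes were called lower and 3.56% higher. MCM6 had 22.8 and 28.0 FPKM at 72 h and 23.5 and 22.8 FPKM at 48 h, against 30.3 and 32.5 FPKM in Cont. MCM5 had 25.8 and 29.6 FPKM at 72 h and 22.9 and 22.9 FPKM at 48 h, against 28.3 and 29.9 FPKM in Cont. Both were called at 48 h, MCM6 with a log2 fold change of -0.42 (SE 0.10, adjusted p = 0.0279) and MCM5 of -0.33 (SE 0.08, adjusted p = 0.0310), and neither at 72 h. At 72 h the log2 fold change of MCM6 was -0.30 (adjusted p = 0.109) and that of MCM5 -0.07 (adjusted p = 0.624). MCM2, MCM3, MCM4 and MCM7 were called at neither time. Their log2 fold changes at 72 h were -0.10 for MCM2, -0.06 for MCM3, -0.11 for MCM4 and 0.02 for MCM7. At 48 h they were -0.13 for MCM2, -0.01 for MCM3, -0.22 for MCM4 and 0.11 for MCM7. MCM7 was thus the subunit with positive values, and both 48 h libraries of MCM4 lay below Cont (adjusted p = 0.0876). GINS2, a subunit of the complex that joins MCM and CDC45, had 10.95 and 11.47 FPKM at 72 h and 10.4 and 10.6 FPKM at 48 h, against 12.4 and 14.6 FPKM in Cont. It was called at 48 h (-0.33, SE 0.09, adjusted p = 0.0360) and not at 72 h (-0.24, adjusted p = 0.119). GINS1, GINS3, GINS4, CDC45 and MCM10 were not called, nor were the fork mediator CLSPN, the chromatin assembly subunit CHAF1A and UHRF1, which recruits the maintenance DNA methyltransferase.

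**Figure D3:**
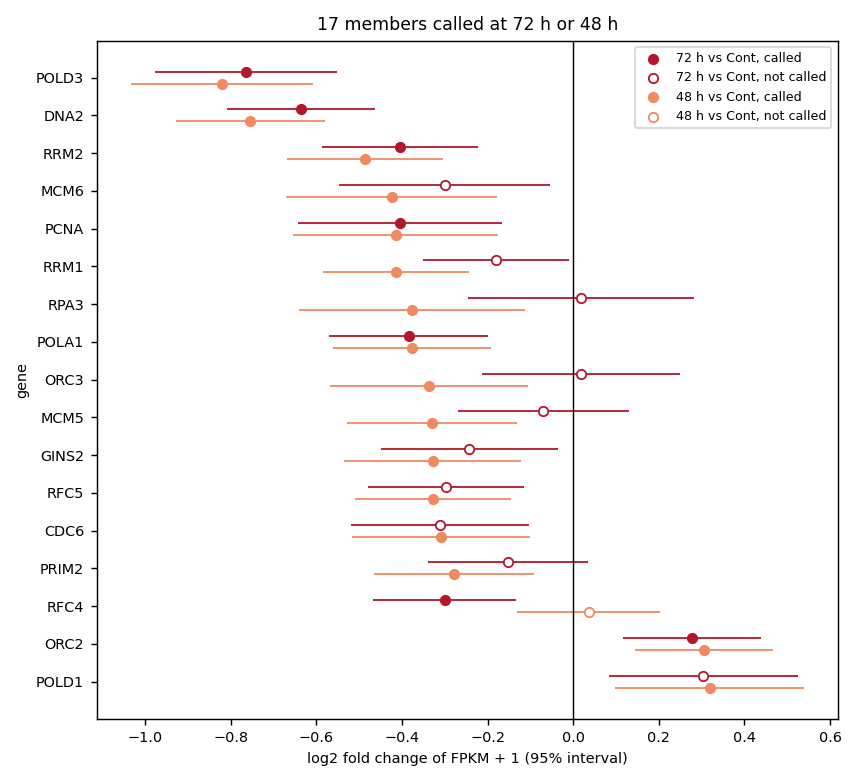
Log2 fold change of FPKM + 1 over Cont (x axis) with its 95% interval from limma for the 17 members called at 72 h or 48 h, the 72 h value above the 48 h value for each gene. Filled points are called and open points are not. POLD3 and DNA2 lie apart at -0.64 or below. At 48 h 16 of 51 members were called in either direction (31.4%; 24.8% of all tested genes). At 72 h 7 were (13.7%; 13.1% of all tested genes), of which RFC4 was called at 72 h only. No member was called between the times.

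The calls differed in how far they rested on single libraries and settings. Over 15 alternatives, which include leaving out each library in turn, POLD3 and DNA2 were called lower at both times in all 15, and RRM2 at 48 h in all 15. RRM1 at 48 h was called in 14 of 15. At 72 h RRM2 was called in 10 of 15 and POLA1 in 9. PCNA was called in 6 of 15 alternatives at 72 h and 11 of 15 at 48 h, ORC2 in 5 at 72 h and 11 at 48 h, and RFC4 at 72 h in 4. At 48 h MCM5, MCM6 and RFC5 were called in 10 of 15, POLA1 in 11, GINS2 in 7, POLD1 in 6, and ORC3 and CDC6 in 5. The least stable were RPA3, called in 3 of 15, and PRIM2, called in 3 of 14. Lost whichever library was left out were PCNA, RFC4 and ORC2 at 72 h and CDC6, PRIM2 and RPA3 at 48 h.

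The 2 times were compared directly, since a call at one time and not at the other does not show a difference. No member was called between 72 h and 48 h, where 4.06% of all tested genes were, 1.86% lower and 2.19% higher. An unadjusted p under 0.05 was found for 11 of 51 members, 9 higher and 2 lower at 72 h, beside 25.3% of all tested genes. The median log2 fold change of 72 h over 48 h was 0.03 over members and -0.01 over all genes, and the plot of 72 h against 48 h shows intervals that mostly cross 0. RFC4 was nearest to a call (-0.34, SE 0.07, adjusted p = 0.0519) and was called lower with limma-voom on recovered reads and with a filter of 5 FPKM. RPA1 (0.32, adjusted p = 0.0649) and ORC3 (0.36, adjusted p = 0.0859) were called higher by voom alone. For PCNA the difference was 0.01 with a 95% interval from -0.23 to 0.25, and for POLD3 0.06 with an interval from -0.16 to 0.27, so changes of that size between the times are not excluded.

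**Figure D4:**
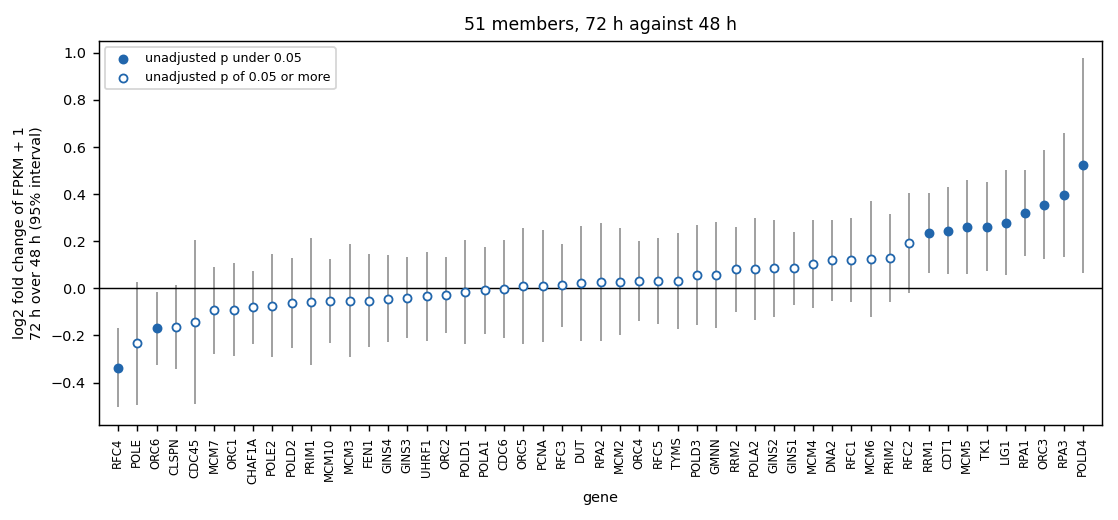
Log2 fold change of FPKM + 1 at 72 h over 48 h (y axis) with its 95% interval from limma for the 51 tested members, in order of size. Filled points have an unadjusted p under 0.05, and none of the 51 was called after adjustment. RFC4 is lowest at -0.34 and POLD4, with 66 to 194 reads per library, highest at 0.52.

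A further 48 replication genes outside the list, covering firing kinases, licensing control, alternative clamp loaders, topology, nucleotide metabolism and chromatin, gave 45 tested genes. At 72 h 5 were called lower (11.1%; 9.51% of all genes) and 3 higher (6.67%; 3.56% of all genes). At 48 h 6 were called lower (13.3%; 16.5% of all genes) and 3 higher (6.67%; 8.38% of all genes), and none was called between the times. Their median log2 fold change over Cont was -0.02 at 72 h and -0.07 at 48 h. DCK, which salvages deoxynucleosides, had 8.23 and 8.78 FPKM at 72 h and 8.27 and 8.11 FPKM at 48 h, against 11.07 and 11.04 FPKM in Cont (log2 fold change -0.34 at 72 h, adjusted p = 0.0229, and -0.39 at 48 h, adjusted p = 0.00914). CUL4A, a scaffold of the ubiquitin ligase that degrades CDT1, had 25.0 and 22.9 FPKM at 72 h and 25.0 and 26.1 FPKM at 48 h, against 18.7 and 18.5 FPKM in Cont (0.35 at 72 h, adjusted p = 0.0273, and 0.44 at 48 h, adjusted p = 0.00839). The dNTP hydrolase SAMHD1 had a log2 fold change of -0.43 at 72 h (adjusted p = 0.0334), and RBBP4, a partner of the chromatin assembly factor, one of 0.32 (adjusted p = 0.0296). At 48 h SAMHD1 stood at -0.42 (adjusted p = 0.0222), and RBBP4 was not called (0.11, adjusted p = 0.287). At 48 h the histone chaperone ASF1B stood at -0.68 log2 against Cont (adjusted p = 0.00801) and the helicase-like MCM9 at -0.45 (adjusted p = 0.0146). At 72 h ASF1B was not called (-0.23, adjusted p = 0.225), and MCM9 stood at -0.38 (adjusted p = 0.0395). RNASEH2A, which every dividing cell uses, was listed at 0 in all libraries, and so a listed 0, as for CHAF1B, is given as listed and not as absence of the RNA.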

How the data were processed

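Total RNA of SAS-Fucci cells was sequenced by the authors on a DNBSEQ platform. Per the submitters' processing notes the tools included HISAT2 (2.0.1) and HTSeq (0.6.1), with the GRCh38 build; the annotation release and the use of strand are not given in the sources used here. The deposited table holds FPKM per gene model, made by the authors to 3 decimals, and another column with the length of each gene model; no per-library depth is stated. A library's depth was recovered as the total at which FPKM times length became whole reads, which gave 17430742 to 21579558 assigned reads per library. Of the 21783 to 22964 values per library above 0 and fine enough at 3 decimals to resolve a read, at least 99.9955% were whole within 0.1 read.

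Here log2(FPKM + 1) of named genes with at least 1 FPKM in at least 2 of 6 libraries was fitted with limma (3.58.1, R 4.3.3), with a variance trend and 1 mean per group, and p-values were Benjamini-Hochberg adjusted over all 11214 genes at a threshold of 0.05. Fold changes on this scale understate those of low genes. An exact permutation test of 2 against 2 libraries cannot go below p = 0.333, so the calls rest on the spread pooled over genes and groups. The fit was tried on simulated data with independent noise in each library and planted changes larger than most of those called here. That trial held no shared shift between replicates, and it does not show how well smaller changes are called.

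The members and lists were chosen with earlier results of these data known. The text gives values in every library for members called in a comparison, and for PCNA, CDT1 and GMNN; other members are given by counts and ranges, except RPA1, TK1 and CLSPN, whose values are given in the closing section for a pattern seen in the data. Other replication genes were named by smallest p, at most 4 per comparison. Promoters were taken in order of p from called members with a motif. Alternatives were pseudocounts of 0.1 and 5, no filter, a filter of 5 FPKM, unnamed models included, quantile normalization, limma-voom on recovered reads, a fit on the 2 compared groups, a replicate block and leaving out each library.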

Additional observations from a re-analysis of the deposited data

Results flagged for a closer look

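For 3 members the knockdown libraries of the 2 times lay wholly on opposite sides of both Cont libraries. RPA1, the large subunit of the single-strand binding protein, had 43.9 and 46.0 FPKM at 72 h (115% of the Cont mean) and 34.1 and 37.6 FPKM at 48 h (91.7%), against 38.4 and 39.7 FPKM in Cont. The difference of 72 h from 48 h was 0.32 log2 (SE 0.08, adjusted p = 0.0649 in limma). SMYD4 and AC130689.1, on the opposite strand, overlap the RPA1 model. TK1, which salvages thymidine, had 94.1 and 104 FPKM at 72 h (108%) and 84.8 and 80.3 FPKM at 48 h (90.03%), against 91.6 and 91.8 FPKM in Cont. Its difference was 0.26 log2 (SE 0.08, adjusted p = 0.107). CLSPN, the fork mediator of checkpoint signalling, ran the other way, with 9.19 and 8.76 FPKM at 72 h (96.9%) and 9.63 and 10.7 FPKM at 48 h (110%), against 9.26 and 9.26 FPKM in Cont. Its difference was -0.16 log2 (SE 0.07, adjusted p = 0.233). None of the 3 differences passed the adjusted threshold, and the same arrangement was found in 566 of 11214 tested genes (5.05%).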

How the results depend on the processing

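Calls were few and moved with the settings. Without a filter on low values 27780 genes were tested. The members called lower were then 2 at 72 h (3.85%, against 0.986% of all genes) and 4 at 48 h (7.69%, against 3.63%). Members called higher were 0 at 72 h and 1 at 48 h. The other replication genes called lower were 0 at 72 h and 2 at 48 h, beside the same shares of all genes. Those called higher were 0 at 72 h and 1 at 48 h, beside 97 and 423 of all 27780 genes. With a filter of 5 FPKM, 3 other genes were lower at 72 h, beside 680 of all 6557 genes (10.4%). Between the times 1 member and 1 other gene were lower, beside 239 of all genes. There 2 other genes were higher, beside 301 of all genes. With unnamed models included, members called higher were 0 at 72 h and 1 at 48 h, beside 293 and 832 of all 12361 genes. Other genes called lower at 72 h were 2, beside 852 of all genes (6.89%). Quantile normalization gave 4 lower members at 72 h (7.84%, against 6.02% of all genes) and 9 at 48 h (17.6%, against 12.7%). It gave 2 lower other genes at 72 h, and member medians of -0.0342 at 72 h and -0.0718 at 48 h. It also shifted all genes: 675 lower and 552 higher at 72 h against 1066 and 399, and 1419 and 1375 at 48 h against 1845 and 940. A pseudocount of 5 gave a 48 h member median of -0.0722. Voom on recovered reads called 2 members higher at 72 h, beside 570 of all 11214 genes. At 48 h it called 5 other genes higher, beside 1180 of all genes. Between the times it called 1 member lower and 2 higher, and 1 other gene lower and 2 higher. The fit on the 2 compared groups called 0 members higher at 72 h and 1 at 48 h, beside 274 and 783 of all genes. It called 1 other gene lower and 0 higher at 72 h, beside 773 and 274 of all genes. Between the times, genes called lower and higher over the whole table were 209 and 246, and by voom 554 and 599, without a filter 8 and 10, with unnamed models 37 and 61, and in the fit on those groups 103 and 147. Lower calls over the whole table at 72 h were 274 without a filter and 680 with a filter of 5 FPKM, and at 48 h 1009 and 1224; higher calls without a filter were 97 at 72 h and 423 at 48 h. The cause was not tested, beyond the number of genes tested in each.

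The labels give no pairing of replicate numbers, and the replicate differences correlated across genes at -0.123 (72 h with 48 h), 0.159 (72 h with Cont) and -0.00322 (48 h with Cont). With the replicate block, 5 members were lower at 72 h (9.8%, against 7.57% of all genes) and 11 at 48 h (21.6%, against 14.9%). Higher members were 0 at 72 h and 1 at 48 h, beside 314 and 848 of all 11214 genes. Other genes lower at 72 h were 3. Between the times 1 other gene was higher, and calls over the whole table were 73 lower and 104 higher. A crossed block for 72 h against 48 h, chosen after seeing the data, called 1 member higher, with 202 lower and 230 higher over the whole table.

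Leaving out each library in turn gave 2 to 4 lower members at 72 h (3.92% to 7.84%; 2.53% to 6.88% of all genes) and 3 to 10 at 48 h (5.88% to 19.6%; 6.49% to 14.3% of all genes), 0 to 1 higher members at each, and 0 of either kind between the times. Member medians ran from -0.117 to -0.0315 at 72 h, from -0.147 to -0.0382 at 48 h and from -0.0170 to 0.0543 between the times. Lower calls among the other genes were 0 to 1 at 72 h and 1 to 5 at 48 h, higher ones 0 to 1 and 0 to 3, with 0 between the times. IGFBP3 ran from -3.31 to -2.55 at 72 h and from -4.35 to -4.26 at 48 h. Signs turned for values near 0. GMNN at 72 h ran from -0.0074 (without 72 h replicate 1) to 0.192, GMNN at 48 h from -0.0091 (without 48 h replicate 1) to 0.0791, passing -0.0055 (without Cont replicate 1), and it was -0.0023 with quantile normalization. CDT1 at 48 h ran from -0.12 to 0.034 (without 48 h replicate 2), and PCNA for 72 h against 48 h from -0.10 (without 72 h replicate 2) to 0.121, passing -0.0056 (without 48 h replicate 1). With 2 libraries a group, the median SE of a member's log2 fold change was 0.08, and differences from Cont of 0.31 log2 at 72 h and 0.53 log2 at 48 h went without a call.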
